A study of Mus musculus with 12 samples.

Results

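The response to carbon tetrachloride (CCl4) of mouse hepatocytes labelled as lacking the receptor Fgfr3 was read from 6 of the 12 RNA-seq libraries of the series, chosen by their labels: 3 of Alb-R3 mice given CCl4 and 3 of Alb-R3 mice given oil. Of the 35709 genes in the deposited table, 18464 had a normalized count of at least 1 in at least 3 of these 6 libraries and were compared. Alb-R3 marks mice in which Cre recombinase, driven by the albumin promoter that is active in hepatocytes, deletes Fgfr3, and the mice labelled Alb-Cre, which share the Cre, serve as its controls. The mice of each group were C57BL/6J males aged 8 to 10 weeks, given 1 intraperitoneal injection of CCl4 (0.4 mg for each g of the mouse) dissolved in olive oil, or of the oil, and the label time is 48 h. Hepatocytes had been purified after Liberase perfusion by differential centrifugation and a Percoll gradient. The labels do not say whether the 3 replicates of a group were separate animals, so p-values measure the spread between these libraries, which may be technical.

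CCl4 is converted to toxic radicals by cytochrome P450 enzymes, chiefly Cyp2e1, in the hepatocytes around the central vein, which die. The surviving hepatocytes, which rest outside the cell cycle in the healthy adult liver, then copy their DNA and divide to replace them, while they keep supplying plasma proteins, bile acids and detoxifying enzymes. Fgfr3 is a receptor tyrosine kinase for fibroblast growth factors, and its signal runs through the ERK kinases, which switch on feedback inhibitors of the Sprouty and dual-specificity phosphatase families.

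Fgfr3 itself (ENSMUSG00000054252, chromosome 5, 33721674 to 33737068, GRCm38) had normalized counts of 523.1, 650.5 and 1109 after oil and 477.7, 372.1 and 382.3 after CCl4. It was not absent from any library, and the library labelled Alb-R3 oil replicate 3 held the highest value, while the 3 CCl4 values lay below the 3 oil values. Its log2 fold change was -0.82 ± 0.25 (limma SE, n = 3 per group; adjusted p = 0.0326), and -0.94 without CCl4 replicate 1. The call was lost when oil replicate 2 or 3 or CCl4 replicate 2 or 3 was left out. In Alb-Cre the counts were 734.9, 887.6 and 988.1 after oil and 950.9, 705.7 and 753 after CCl4. The Alb-R3 values thus overlapped those of Alb-Cre after oil and lay below them after CCl4. The difference between the genotypes in the response did not pass (limma interaction adjusted p = 0.685). The deposited table has 1 value per gene and the labels name no deleted exon, so this value does not check the deletion.

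Library totals were 35300000, 35700000 and 38800000 normalized counts after oil and 35500000, 29000000 and 27200000 after CCl4. CCl4 replicate 1 stood apart: mitochondrially encoded genes took 32.3% of its counts, against 7.22% and 7.85% in CCl4 replicates 2 and 3 and 6.22% to 9.46% after oil. Among the 3 CCl4 libraries it also held the smallest share of the spindle genes described below, and among the 6 the largest of macrophage and neutrophil markers. Values without it are given beside those that move most. Hepatocyte identity was present in each library: albumin (Alb) took 4.67% to 6.66% of counts after oil and 3.19%, 8.14% and 8.58% after CCl4. Of 14 hepatocyte markers tested, 4 fell (Cyp2e1, Pck1, Asgr1 and Tat) and none rose (median -0.61), and 3 fell without CCl4 replicate 1 (-0.45). Alb, Ttr, Apoa1, Hnf4a and Cps1 were among those that did not pass, and the log2 fold change of the nuclear receptor Hnf4a was -0.16 ± 0.31 (limma adjusted p = 0.758). With quantile normalization 2 of the 14 fell (median -0.22). The same number fell with library totals taken without mitochondrial genes (-0.19) and in the deposited FPKM columns (-0.34). Asgr1 lost its call in each of these, and when any 1 oil library was left out. In bulk libraries fewer cells of a type and less RNA per cell cannot be told apart.

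CCl4 raised 2261 genes (12.2% of those tested) and lowered 1460 (7.91%) at a limma adjusted p under 0.05. Without CCl4 replicate 1 it raised 1992 (10.8%) and lowered 1302 (7.05%), and 2760 genes passed in both fits. The 3721 called genes kept their direction. That was fixed in advance for the 3666 of them whose oil and CCl4 values do not overlap. Groups without overlap were also a condition for most genes named below, as was passing without CCl4 replicate 1. The rises were steep and the falls shallow: 1113 genes rose by at least 4-fold (2 on the log2 scale) and 223 fell by as much, with median log2 fold changes of 1.98 among those that rose and -1.06 among those that fell. They also sat at different levels. Of 389 genes with a mean above 10000 normalized counts, 4 rose and 103 fell, whereas of 3652 genes between 10 and 100, 956 rose and 216 fell. Protein-coding genes made up 2186 of the rises and 1209 of the falls, and of 2489 long noncoding RNAs tested 65 rose and 203 fell. The count of falls depends on the scaling. With library totals taken without mitochondrial genes the median of all tested genes moved up by 0.39 on the log2 scale and 4735 genes rose and 529 fell, in the deposited FPKM columns it moved by 0.19 with 3235 and 586, and with quantile normalization 1785 rose and 1737 fell. Below, a list's median stands beside the median of all tested genes, -0.01 with the deposited scaling, and log2 fold changes are of the normalized count + 1, which understates the change of low genes.

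**Figure D1:**
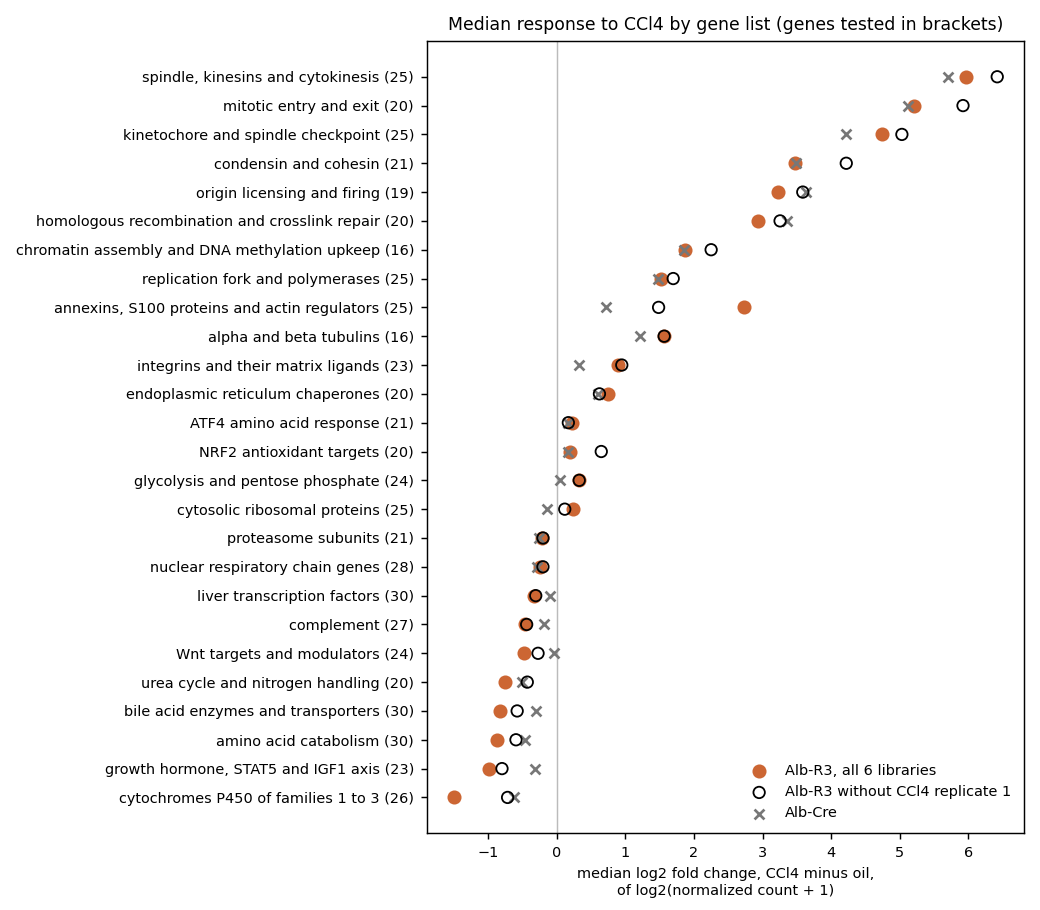
Median log2 fold change (CCl4 minus oil, x axis) over the tested members of each gene list (rows, with the number tested). Filled points are Alb-R3 with 6 libraries, open circles Alb-R3 without CCl4 replicate 1 and crosses Alb-Cre: spindle genes lie at 5.96 and the replication fork at 1.51 in Alb-R3, and the list of cytochromes P450 moves from -1.50 to -0.72 when CCl4 replicate 1 is left out.

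Genes of cell division rose in each phase of the cycle. Of 25 genes of the spindle, kinesins and cytokinesis, 25 rose (median log2 fold change 5.96), as did 18 of 20 of mitotic entry and exit (5.21), 23 of 25 of the kinetochore and spindle checkpoint (4.73) and 14 of 21 of condensin and cohesin (3.48). In the list of origin licensing and firing 17 of 19 rose and 1 fell (3.23, and 3.58 without CCl4 replicate 1). Medians were lower for homologous recombination and crosslink repair, where 17 of 20 rose (2.93), for chromatin assembly, where 15 of 16 rose (1.86), for regulators of G1 and S phase, where 18 of 25 rose (1.70), and for the replication fork and polymerases, where 20 of 25 rose (1.51). These medians stayed above 0 under each of the 3 other scalings.

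Mki67, the antigen used to mark cycling cells (ENSMUSG00000031004, chromosome 7, 135689784 to 135716361), had normalized counts of 7.66, 7.93 and 9.46 after oil and 775.8, 2307 and 2701 after CCl4. Each CCl4 library lay far above the oil libraries, CCl4 replicate 1 lowest of the 3, and the log2 fold change was 7.50 ± 0.54 (limma adjusted p = 3.84e-06). Cdc20, which activates the anaphase-promoting complex, stood at 5.47, 11.3 and 13 after oil and 529.2, 4129 and 3843 after CCl4. Here CCl4 replicate 1 had less than the other 2 CCl4 libraries by a wide margin but did not overlap the oil libraries, and the rise was 7.62 ± 0.79 and 8.59 without it. Racgap1, the centralspindlin subunit that places the cleavage furrow, went from 4.38, 1.13 and 4.88 to 229, 1274 and 1708, a log2 rise of 7.61 ± 0.85 (limma adjusted p = 7.46e-05) and 8.50 without CCl4 replicate 1. Knstrn, an adaptor of the mitotic spindle, rose by 7.66 ± 0.79 and Cdkn3, a phosphatase that acts on Cdk1, by 7.36 ± 0.84 (8.54 and 8.25 without that replicate). The topoisomerase Top2a, which untangles sister chromatids, had 4.9, 5.67 and 7.1 and then 515, 1418 and 1887, and the condensin subunit Ncapg 0, 1.13 and 1.18 and then 119.7, 379.4 and 484.1. As with Cdc20, the values of CCl4 replicate 1 were the lowest of the CCl4 group for both genes. Kinetochore genes followed the same order of libraries: Cenpe, a kinesin of the kinetochore, rose by 7.02 ± 0.72, the Ndc80 complex subunit Nuf2 by 7.06 ± 0.71 and the checkpoint kinase Bub1 by 7.0 ± 0.72. Without CCl4 replicate 1 the rise of Ncapg was 8.01 and that of Cenpe 7.76.

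Genes of the start of the cycle and of DNA copying differed less between the CCl4 libraries, though CCl4 replicate 1 was still the lowest for most. Among genes that rose it was lowest for 14 of 17 of the origin list (median log2 difference from the other 2 of -0.629). The same held for 14 of 20 of the replication fork (-0.442) and 16 of 17 of homologous recombination (-0.967). Some of the genes below are exceptions. Cyclin E1 (Ccne1), which drives entry into S phase, had 17.5, 27.2 and 22.5 after oil and 340.4, 235.9 and 335 after CCl4, and CCl4 replicate 1 was the highest. Ticrr, needed to fire replication origins, had 1.09, 0 and 0 after oil and 79.9, 54.3 and 89.8 after CCl4. Its 3 CCl4 values were within a narrow range and its rise was 5.86 ± 0.50 (limma adjusted p = 1.15e-05) and 5.79 without CCl4 replicate 1. Cdc6, which loads the Mcm helicase at origins, rose from 2.19, 0 and 1.18 to 106.3, 167.7 and 177.1 (6.27 ± 0.59), and Gins2, a subunit of the active helicase, by 5.08 ± 0.43. Timeless, which protects the moving fork, had 35.1, 37.3 and 26.1 after oil and 400.4, 270.3 and 334.9 after CCl4, again with CCl4 replicate 1 highest, and Clspn, its checkpoint partner, rose by 6.34 ± 0.70. The nucleotide supply list was mixed, with 10 of 20 rising and Shmt1 falling (median 0.65): both ribonucleotide reductase subunits rose, Rrm2 by 3.73 ± 0.47 (4.33 without CCl4 replicate 1) and Rrm1 by 2.28 ± 0.33, as did CTP synthase (Ctps) by 2.21 ± 0.29. Shmt1 lost its call under each of the 3 other scalings. Among genes that rebuild chromatin behind the fork, Uhrf1, which carries DNA methylation to the new strand, rose by 6.95 ± 0.59 and the histone chaperone Asf1b by 5.26 ± 0.54. Rad54l, a motor protein of homologous recombination, was listed at 0 in each oil library and at 71.2, 90.8 and 176.3 after CCl4.

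A pair of division genes went the other way. Mcm10, a replication initiation factor (ENSMUSG00000026669, chromosome 2, 4989714 to 5012791), stood at 1818, 2235 and 2867 after oil and 486.9, 829.2 and 505.7 after CCl4. The CCl4 values were all below the oil values, and it fell by 1.94 ± 0.24 (limma adjusted p = 0.000178), by 1.81 without CCl4 replicate 1 and, in Alb-Cre, by 1.24 (adjusted p = 0.00891). It was the member of the origin list that fell, against 17 of 19 that rose. Pttg1, or securin, which holds separase in check until anaphase, had 971.4, 899.4 and 1094 after oil and 548.4, 737.1 and 576.5 after CCl4 and fell by 0.68 ± 0.16 (limma adjusted p = 0.0106), while 14 members of its list rose. Its CCl4 values were likewise all below its oil values. Pttg1 did not pass with totals taken without mitochondrial genes (-0.26) or in the FPKM columns (-0.41).

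Promoter sequences were read for these lists to see which letters their members share. Each window runs from 250 bases before to 50 after the start of transcription in RefSeq on GRCm38.p6, on the strand of the gene, and 12707 of the tested genes had one. Letters were searched on both strands: TTTGAA, the core of the cell cycle homology region bound by the DREAM and MuvB complexes of G2 and M phase genes, CCAAT, bound by NF-Y, and TTTNNCGC, a form of the E2F site. TTTGAA lay in 81% of the 21 windows of the spindle list and 56.2% of the 16 of mitotic entry and exit, beside 13.6% of windows of tested genes. In the 13 windows of origin licensing it lay in 23.1%, and in the 21 of the replication fork in 4.76%. It lay in 47.1% of the 17 windows of condensin and cohesin and 46.2% of the 13 of chromatin assembly. The E2F letters lay in 61.5% of the windows of origin licensing, 33.3% of the replication fork, 41.2% of condensin and cohesin, 14.3% of the spindle list and 6.25% of mitotic entry and exit, beside 7.6% of tested genes. CCAAT lay in 38.8% of tested genes, 81.2% of mitotic entry and 84.6% of origin licensing. It lay in 61.9% of the spindle list, 58.8% of condensin and cohesin and 47.6% of the replication fork. In lists with no member risen it lay in 93.8% of cholesterol synthesis and 78.6% of antigen presentation, so it does not set the division genes apart. Over the 1280 windows of genes that rose in both fits TTTGAA lay in 17.3% and the E2F letters in 11%, and over the 162 that rose by at least 4 on the log2 scale in both, in 39.5% and 12.3%. A match describes the letters and does not show that a factor binds there.

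The 250 bases before the start are shown for genes of entry into mitosis and anaphase and for genes of origin licensing, with these 3 sets of letters in capitals on either strand (TTCAAA is TTTGAA read on the other strand, as ATTGG is of CCAAT). Ccnb1 (chr13:100786487-100786736, minus strand) and Ube2c (chr2:164769679-164769928, plus strand) are the members of the mitotic entry list with the largest rises among those with a sequence in the table, and Cdc6 (chr11:98907901-98908150, plus strand) and Ticrr (chr7:79659946-79660195, plus strand) those of the origin list. Cdc20 (chr4:118437344-118437593, minus strand) and Top2a (chr11:99024190-99024439, minus strand) were added after their letters were seen, since they hold TTTGAA and CCAAT close together near the start.
Ccnb1: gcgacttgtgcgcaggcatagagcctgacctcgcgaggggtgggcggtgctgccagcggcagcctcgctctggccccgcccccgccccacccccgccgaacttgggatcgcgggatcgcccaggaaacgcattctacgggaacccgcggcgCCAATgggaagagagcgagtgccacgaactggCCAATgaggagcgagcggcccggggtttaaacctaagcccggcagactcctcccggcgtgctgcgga
Ube2c: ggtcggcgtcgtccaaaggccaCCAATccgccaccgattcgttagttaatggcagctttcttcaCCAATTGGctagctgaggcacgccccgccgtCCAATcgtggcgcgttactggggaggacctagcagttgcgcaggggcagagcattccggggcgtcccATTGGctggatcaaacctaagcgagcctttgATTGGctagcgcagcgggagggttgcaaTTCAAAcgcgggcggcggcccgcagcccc
Cdc20: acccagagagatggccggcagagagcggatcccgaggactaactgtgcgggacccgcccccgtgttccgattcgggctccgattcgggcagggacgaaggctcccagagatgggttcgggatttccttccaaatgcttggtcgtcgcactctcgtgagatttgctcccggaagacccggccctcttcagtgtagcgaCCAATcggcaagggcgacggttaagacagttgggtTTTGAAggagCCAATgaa
Top2a: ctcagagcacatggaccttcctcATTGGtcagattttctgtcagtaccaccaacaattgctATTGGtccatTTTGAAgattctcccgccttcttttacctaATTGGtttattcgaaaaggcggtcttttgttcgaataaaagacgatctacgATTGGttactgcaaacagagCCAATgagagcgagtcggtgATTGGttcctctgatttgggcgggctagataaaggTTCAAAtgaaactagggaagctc
Cdc6: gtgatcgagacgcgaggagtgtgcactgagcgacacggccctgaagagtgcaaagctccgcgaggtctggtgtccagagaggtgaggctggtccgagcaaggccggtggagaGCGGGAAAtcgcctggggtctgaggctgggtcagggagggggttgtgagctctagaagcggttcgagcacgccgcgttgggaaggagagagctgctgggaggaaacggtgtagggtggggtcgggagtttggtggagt
Ticrr: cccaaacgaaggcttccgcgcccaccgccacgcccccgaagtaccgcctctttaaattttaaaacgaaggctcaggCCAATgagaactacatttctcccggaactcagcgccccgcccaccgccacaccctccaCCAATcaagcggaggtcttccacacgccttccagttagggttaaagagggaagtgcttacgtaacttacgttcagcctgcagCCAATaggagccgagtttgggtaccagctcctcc
In Cdc20 and in Ube2c the cell cycle letters start 18 and 29 bases before the start. Cdc20 holds CCAAT on both sides of them. Top2a holds 6 CCAAT boxes and Ube2c 6, a pair of them overlapping. Ccnb1 holds 2 CCAAT boxes in these bases and Ticrr 3, with no TTTGAA in either. Cdc6 holds the E2F letters and neither of the others. The windows of Racgap1 and Kif4 hold TTTGAA just after the start, at 6 and 20 bases.

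Membrane and cytoskeleton genes also rose. Of 25 annexins, S100 proteins and actin regulators, 16 rose and none fell (median 2.73), and 14 without CCl4 replicate 1, with a median of 1.48. Annexin A2 (Anxa2, ENSMUSG00000032231, chromosome 9, 69453620 to 69491795), which binds membranes and actin, had 44.9, 57.8 and 54.4 after oil and 2486, 2381 and 2194 after CCl4. The 3 CCl4 values were close together and far above the oil values, with a log2 fold change of 5.47 ± 0.30 (limma adjusted p = 5.19e-07) and, in Alb-Cre, 3.19. Its partners of the S100 family behaved in 2 ways. S100a11 had 24.1, 28.3 and 41.4 after oil and 1152, 801.3 and 833.5 after CCl4, even across CCl4 libraries (4.87 ± 0.30), whereas S100a6 had 0, 2.27 and 7.1 after oil and 654.1, 47.6 and 99.4 after CCl4, with most of it in CCl4 replicate 1 (5.63 ± 1.0, and 4.55 without it). Cd63, a tetraspanin of late endosomes, rose from 24.1, 12.5 and 21.8 to 1654, 595 and 934.2 (5.62 ± 0.47).

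The list of tubulins, with stathmin and a protein of the gamma tubulin complex, had 11 of 16 members risen and 1 fallen (median 1.57). Tubb6, a beta tubulin, had 93, 99.7 and 100.5 after oil and 1638, 2371 and 2565 after CCl4. The oil values were close together and the CCl4 values did not overlap them (4.45 ± 0.24, limma adjusted p = 5.19e-07). Stathmin (Stmn1), which takes microtubules apart, had 83.2, 79.3 and 141.9 after oil and 871.8, 3038 and 3442 after CCl4 (4.4 ± 0.44, and 5.03 without CCl4 replicate 1), and Tubb2b, listed at 0 in each oil library, had 19.1, 18.1 and 2.19. The abundant Tuba1b went from 1959, 2227 and 2121 to 5627, 12050 and 11090 (2.11 ± 0.26) and was among the 10 called genes with the largest gain in share of a library. Tubulin genes are near-identical in sequence, so reads may be split between them and single members are uncertain. The member that fell was Tuba4a, by 0.69 ± 0.20, named after its value was seen, which did not pass without CCl4 replicate 1 (-0.54, limma adjusted p = 0.0721) or under any of the 3 other scalings. Integrins and their matrix ligands had 11 of 23 risen, and 12 without CCl4 replicate 1 (median 0.88): Thbs1, or thrombospondin 1, stood at 127.9, 12.4 and 12 after CCl4 against at most 1.18 after oil, and the hyaluronan receptor Cd44 at 477.7, 79.8 and 180.3 against 16.4, 17 and 13. Both were highest in CCl4 replicate 1, and their log2 fold changes moved from 4.45 and 3.55 to 3.35 and 2.89 without it.

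**Figure D2:**
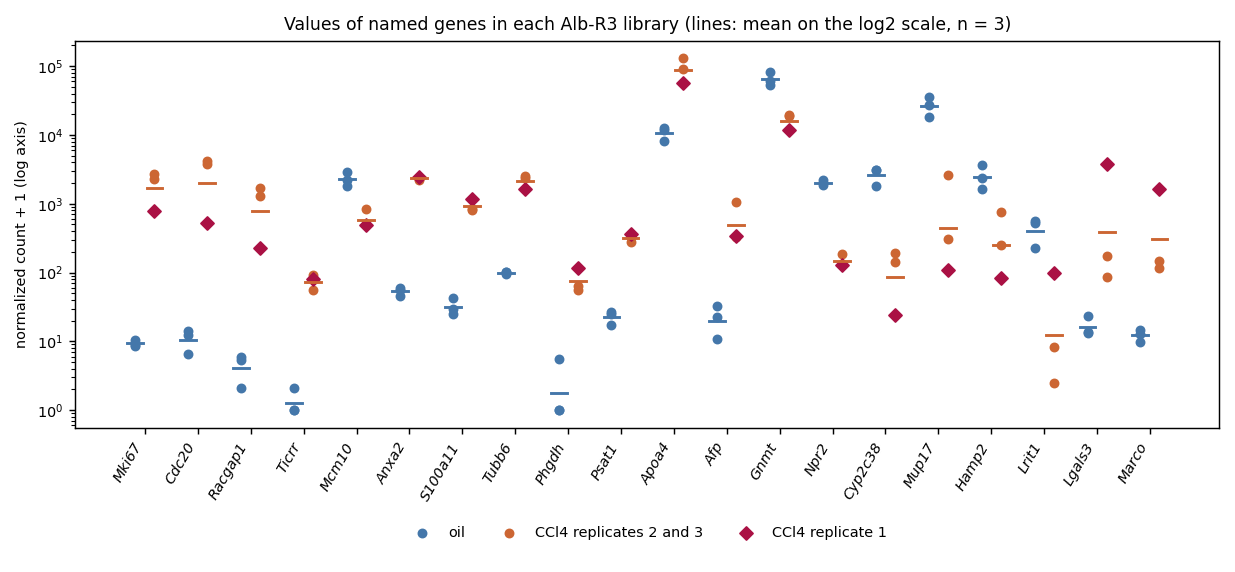
Normalized count + 1 (log axis) of 20 genes in each Alb-R3 library. Blue points are oil, orange points CCl4 replicates 2 and 3, red diamonds CCl4 replicate 1, and lines the mean on the log2 scale over 3 libraries: CCl4 replicate 1 is lowest of its group for Mki67, Cdc20 and Racgap1, level with it for Anxa2 and Ticrr, and far above it for Lgals3 and Marco.

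Amino acid supply changed through a short set of genes. Of 21 genes of the ATF4 amino acid response, 8 rose and 1 fell (median 0.22). The members that rose make serine, asparagine and proline or carry amino acids into the cell. Phgdh, the first enzyme of serine synthesis from glucose, had 0, 4.53 and 0 after oil and 115.5, 62.3 and 55.3 after CCl4, and Psat1, the next enzyme, 24.1, 26.1 and 16.6 after oil and 361.1, 328.9 and 277.3 after CCl4. For both genes the groups did not overlap and CCl4 replicate 1 was highest, with rises of 5.40 ± 0.78 (limma adjusted p = 0.000509) and 3.81 ± 0.29 (5.96e-06). In Alb-Cre these rises were 4.75 and 3.22, both past the test. Aldh18a1, which commits glutamate to proline, rose by 5.33 ± 0.68, and the glycine carrier Slc6a9 fell by 1.06 ± 0.26. Atf4, the factor the list is named for, had a log2 fold change of -0.13 ± 0.21 (limma adjusted p = 0.713) and its target Trib3 one of -0.99 ± 0.38 (0.0824), neither past the test.

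Chaperones of the endoplasmic reticulum, which fold secreted proteins, had 7 of 20 risen (median 0.74), and 4 without CCl4 replicate 1. With quantile normalization 13 rose, with totals taken without mitochondrial genes 17 and in the FPKM columns 12. BiP (Hspa5) had 10190, 9064 and 10830 after oil and 33670, 27690 and 20520 after CCl4 (1.42 ± 0.37), Manf rose by 1.67 ± 0.38 and Sdf2l1 by 1.96 ± 0.50. For these 3 genes CCl4 replicate 1 was the highest of its group, and no group overlapped. Hspa5 and Hsp90b1 were also among the 10 largest gains in share, to 0.0885% and 0.0968% of a library. Hsp90b1 lost its call when any 1 oil library was left out, and Hspa5 without oil replicate 1 or 2.

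Targets of the oxidant sensor NRF2 depended on CCl4 replicate 1 in the opposite way. With it, 6 of 20 rose (median 0.19), and without it 8 rose (median 0.65). Gsta1, a glutathione transferase, had 146.9, 137.5 and 180.9 after oil and 617, 4722 and 2751 after CCl4 (3.69 ± 0.82, and 4.54 without replicate 1), and sulfiredoxin (Srxn1) 927.2 to 1095 after oil and 1719, 5856 and 5429 after CCl4 (1.91 ± 0.43 and 2.48). Both were lowest in replicate 1 within the CCl4 group. Nqo1, a quinone reductase and a standard NRF2 readout, had 179.5, 172.3 and 125.4 after oil and 58.8, 562.5 and 817.5 after CCl4, so that replicate 1 lay below the oil libraries and the other 2 above. It did not pass with 6 libraries (0.93 ± 0.75, limma adjusted p = 0.421) and passed without replicate 1 (2.10, 0.00373). The same held for thioredoxin reductase (Txnrd1, 0.83 and 1.37).

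Glycolysis and the pentose phosphate pathway had 6 of 24 risen and none fallen (median 0.33). The members that rose include isoforms that other tissues use in place of those of the adult hepatocyte. Pkm, the pyruvate kinase of most tissues, had 56.9, 46.5 and 82.8 after oil and 2306, 533.2 and 513.9 after CCl4 (3.81 ± 0.47, limma adjusted p = 0.000162), Pfkp, a phosphofructokinase, 6.57, 3.4 and 8.28 after oil and 129, 36.6 and 81.8 after CCl4 (3.45 ± 0.50), and hexokinase 1 (Hk1) 15.3, 13.6 and 13 after oil and 84.6, 36.6 and 43.3 after CCl4 (1.81 ± 0.41). CCl4 replicate 1 was the highest for the 3 genes, and without it their log2 fold changes were 3.10, 3.04 and 1.45. Passing without it was a condition for naming them. In the same replicate the macrophage markers given below were highest too, and their part in these rises was not tested.

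In gluconeogenesis and glycogen storage 5 of 20 fell and 1 rose (median -0.55), and 6 and 1 without CCl4 replicate 1 (-0.26). The member that rose was Pck2, the mitochondrial form of phosphoenolpyruvate carboxykinase, from 30.7, 44.2 and 52.2 to 231.6, 294.9 and 308.8, by 2.71 ± 0.27 (limma adjusted p = 3.26e-05). Its 3 CCl4 values were all above its 3 oil values, and it rose by 1.6 in Alb-Cre (limma adjusted p = 0.00315). The cytosolic form Pck1 fell from 32840, 26750 and 22310 to 2953, 5841 and 7028. Sds, serine dehydratase, which turns serine into pyruvate, fell by 1.82 ± 0.34, and the liver glycogen synthase Gys2 by 1.30 ± 0.33. Ppp1r3g, a subunit that directs a phosphatase to glycogen, had 66.8, 57.8 and 61.5 after oil and 1.03, 6.59 and 8.82 after CCl4 and fell by 3.56 ± 0.73 (log2 fold change -2.87 without CCl4 replicate 1).

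Part of the metabolic enzymes of the hepatocyte fell. Of 30 genes of amino acid catabolism, 15 fell and none rose (median -0.88), and 13 fell without CCl4 replicate 1 (-0.60) and 8 with totals taken without mitochondrial genes. Gnmt, which consumes S-adenosylmethionine by methylating glycine (ENSMUSG00000002769, chromosome 17, 46725664 to 46729168), had 60500, 52850 and 82200 after oil and 11750, 19460 and 18630 after CCl4. The lowest value was that of CCl4 replicate 1 and the groups were far apart (-1.98 ± 0.30, limma adjusted p = 0.000787). Csad, an enzyme of taurine synthesis, fell by 2.16 ± 0.40 and Hpd, of tyrosine breakdown, by 1.52 ± 0.34. In the urea cycle and nitrogen list 7 of 20 fell (median -0.75), and 8 without CCl4 replicate 1 (-0.43): ornithine aminotransferase (Oat) had 4785, 6263 and 5483 after oil and 465.3, 342.1 and 1007 after CCl4 (-3.33 ± 0.38) and glutamine synthetase (Glul) 5227, 7773 and 6040 after oil and 1381, 2074 and 1448 after CCl4 (-1.96 ± 0.27). Oat and Glul are markers of the hepatocytes nearest the central vein, and both fell in Alb-Cre as well (-3.41 and -1.98). Each CCl4 value of both genes lay below each oil value.

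Of 26 cytochromes P450 of families 1 to 3, which oxidize drugs and steroids, 14 fell and none rose (median -1.50). Without CCl4 replicate 1, 10 fell and 1 rose (median -0.72), and with totals taken without mitochondrial genes 11 fell. Cyp2c38 had 3121, 3116 and 1841 after oil and 23.5, 139.5 and 193.1 after CCl4 (-4.90 ± 0.93, and -3.99 without that replicate), and Cyp2c37 6944, 7344 and 6731 after oil and 60.6, 1357 and 2043 after CCl4 (-3.66 ± 0.93 and -2.07). In both the groups did not overlap and replicate 1 was lowest. Cyp2c genes are near-identical copies, as are Cyp4a12a and Cyp4a12b, fatty acid hydroxylases that fell by 4.72 ± 0.89 and 4.75 ± 0.59 (log2 fold changes -3.97 and -4.59 without that replicate), so the split of reads among them is uncertain. Conjugating enzymes, which attach sugars, sulfate or glutathione to the products, had 9 of 28 fallen and none risen (median -0.64), and 6 and 2 without CCl4 replicate 1 or 6 and none with totals taken without mitochondrial genes. Ugt3a1 had 3640, 3801 and 2793 after oil and 246.1, 802.1 and 691.4 after CCl4 (-2.71 ± 0.37) and Sult2a8, a bile acid sulfotransferase, 22530, 21780 and 20950 after oil and 886.2, 9019 and 5928 after CCl4 (-2.59 ± 0.70, and -1.57 without that replicate). Sult2a8 lost its call when any 1 oil library was left out and in the FPKM columns. Among carboxylesterases and alcohol and aldehyde dehydrogenases, 9 of 27 fell and 1 rose, or 5 and 2 without that replicate and 4 and 1 with those totals, with Ces3b falling by 2.85 ± 0.45. Promoter windows of the P450 list were rich in A and T (median GC 46% against 59.3% for tested genes), and TTTGAA lay in 50% of these 22 windows too. They held CAAAGTCC, a form of the HNF4A site, in 22.7% (1.61% of tested genes) and TTGCNNAA, a C/EBP site, in 31.8% (9.13%).

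Bile acid enzymes and transporters had 11 of 30 fallen and 2 risen (median -0.83), and 10 and 3 without CCl4 replicate 1. With quantile normalization 7 fell, and 6 with totals taken without mitochondrial genes and 6 in the FPKM columns, with 2 risen in each. Cyp8b1, which sets the share of cholic acid, had 16340, 9911 and 14560 after oil and 293, 3668 and 2194 after CCl4 (-3.32 ± 0.74, limma adjusted p = 0.00806, and -2.23 without that replicate), and Slc27a5, which joins bile acids to coenzyme A, fell by 1.71 ± 0.33. Cyp8b1 was lowest in CCl4 replicate 1, and the groups did not overlap. The members that rose were Cyp39a1, a hydroxylase of oxysterols, by 1.11 ± 0.33, and Abcc4, an exporter on the blood side of the cell, from 13.1, 18.1 and 5.91 to 88.7, 60.8 and 132.2 (2.88 ± 0.52). Cyp39a1 lost its call when oil replicate 1 or 3 or CCl4 replicate 2 or 3 was left out.

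In the axis of growth hormone, whose pulses in male mice maintain male-biased liver genes through STAT5, 11 of 23 fell and 1 rose (median -0.98), and 8 and 1 without CCl4 replicate 1. With quantile normalization 7 fell and 0 rose, with totals taken without mitochondrial genes 6 and 2, and in the FPKM columns 5 and 0. The receptor Ghr had 14180, 15320 and 12780 after oil and 3087, 6177 and 5692 after CCl4 (-1.56 ± 0.26, limma adjusted p = 0.00135), its signal carrier Stat5b fell by 0.98 ± 0.23 and the carrier of circulating IGF1, Igfals, by 1.49 ± 0.27; the last 2 were named after their values were seen. Igfbp3 was the member that rose, from 9.85, 15.9 and 21.3 to 25.8, 72.5 and 89 (1.81 ± 0.56), and it did not pass when any 1 oil library or CCl4 replicate 2 or 3 was left out. Major urinary proteins, which are male-biased secreted carriers, gave the largest losses in share: Mup22 held 3.24% of a library after oil and 0.884% after CCl4, and Mup7 0.930% and 0.159%. Mup22 had 1278000, 1052000 and 1224000 after oil and 120500, 325800 and 323600 after CCl4, with CCl4 replicate 1 lowest (-2.34 ± 0.71, and -1.86 without it), and lost its call when any 1 oil library was left out. Mup genes are near-identical copies, so values of single members are uncertain.

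Npr2, the receptor of C-type natriuretic peptide (ENSMUSG00000028469, chromosome 4, 43631935 to 43651244), had 1998, 2236 and 1854 after oil and 127.9, 184.6 and 129.9 after CCl4. The 3 values within each group were close, and its fall of 3.79 ± 0.19 had an adjusted p of 4.46e-07, in limma; it was -3.70 without CCl4 replicate 1 and -1.94 in Alb-Cre. Hnf4aos, an antisense RNA at the Hnf4a locus, had 282.3, 192.7 and 254.3 after oil and 11.3, 16.9 and 17.6 after CCl4 (-3.91 ± 0.37); whether the counting used strand is not given, so reads of Hnf4a may be counted there. Car3, an abundant carbonic anhydrase, went from 129200, 121700 and 121800 to 4025, 50740 and 33580 (-2.71 ± 0.74, and -1.59 without replicate 1). Its call was lost when any 1 oil library was left out, with quantile normalization and in the FPKM columns.

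In the list of the circadian clock 6 of 20 fell and 1 rose (median -0.35, but 0.04 with totals taken without mitochondrial genes), and without CCl4 replicate 1 3 fell and none rose. Tef, a transcription factor driven by the clock, had 1557, 2362 and 2800 after oil and 387.9, 711.2 and 956.9 after CCl4 (-1.76 ± 0.34), and the repressor Cry2 870.9, 815.7 and 810.6 after oil and 210.3, 399.2 and 435.6 after CCl4 (-1.32 ± 0.27). In both the groups did not overlap, and CCl4 replicate 1 was lowest of the 6 libraries. Clock genes also spread among the oil libraries: Dbp, a daily oscillating factor, had 467.2, 837.5 and 2550 after oil and 28.9, 103.3 and 230.8 after CCl4 (-3.48 ± 0.99, and -2.69 with an adjusted p of 0.0833, in limma, without CCl4 replicate 1). The labels give the hour of injection as a range and name no hour of collection.

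Secreted plasma proteins split by family. Complement had 9 of 27 fallen and 5 risen (median -0.46), and 8 and 4 without CCl4 replicate 1. With quantile normalization 5 fell and 4 rose (median -0.002). With totals taken without mitochondrial genes 4 fell and 6 rose (-0.04), as in the FPKM columns (-0.19). Those that fell included the liver-made terminal components C6, with 2831, 4048 and 2938 after oil and 743.8, 2171 and 289.3 after CCl4 (-2.06 ± 0.54), and C8g (-1.31 ± 0.23), and Cfd, listed at 0 in the 3 CCl4 libraries after 2.19, 13.6 and 4.73. Those that rose are made by macrophages or are receptors on leukocytes: C1qb had 104, 98.6 and 134.8 after oil and 1774, 309.1 and 389.5 after CCl4 (2.41 ± 0.51, and 1.63 without replicate 1) and the C3a receptor C3ar1 2.19, 1.14 and 4.73 after oil and 344.6, 27.8 and 28.9 after CCl4 (4.30 ± 0.82 and 3.11). CCl4 replicate 1 was the highest for the 5 genes. In coagulation and fibrinolysis 6 of 25 fell and 3 rose (median -0.52). With quantile normalization 1 fell and 3 rose (-0.09), and with totals taken without mitochondrial genes 1 and 5 (-0.10). In the FPKM columns 2 fell and 3 rose (-0.25). The plasminogen activators, which start the dissolving of clots, and the receptor of Plau rose, Plat by 4.27 ± 0.59, Plau by 2.75 ± 0.73 (1.73 without CCl4 replicate 1) and Plaur by 3.72 ± 0.75, and the anticoagulants antithrombin (Serpinc1) and protein C (Proc) fell by 0.95 ± 0.26 and 0.96 ± 0.22. Serpinc1 lost its call when any 1 oil library was left out, and under each of the 3 other scalings. Proc lost its call with quantile normalization and with totals taken without mitochondrial genes.

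Apolipoproteins had 2 of 26 risen and 6 fallen (median -0.52). Under each of the 3 other scalings 2 fell, while 3 rose with quantile normalization, 6 with totals taken without mitochondrial genes and 5 in the FPKM columns. Apoa4, carried on triglyceride-rich particles, had 11910, 12430 and 8190 after oil and 56080, 130000 and 90430 after CCl4 and gained the largest share of any called gene, from 0.0299% to 0.313% of a library. CCl4 replicate 1 had the lowest of the 3 CCl4 values and all lay above oil (3.03 ± 0.49, limma adjusted p = 0.00113, and 2.77 in Alb-Cre). Apoc2, the cofactor of lipoprotein lipase, rose by 1.36 ± 0.24, and Apoa2, a protein of high-density lipoprotein, fell by 1.57 ± 0.45, a call lost when any 1 oil library was left out. Alpha-fetoprotein (Afp), the fetal counterpart of albumin, had 9.85, 21.5 and 31.9 after oil and 336.3, 326 and 1072 after CCl4 (4.62 ± 0.51), and the corticosteroid carrier Serpina6 11490, 12710 and 12000 after oil and 548.8, 3896 and 4720 after CCl4 (-2.48 ± 0.58, and -1.49 without CCl4 replicate 1). Of acute phase proteins, 4 of 24 fell and 2 rose, with a median of -0.35 that was -0.80 without CCl4 replicate 1 and turned to 0.06 with totals taken without mitochondrial genes. Hamp2, a hepcidin gene, had 2362, 1662 and 3673 after oil and 82.8, 248 and 748.9 after CCl4 (-3.28 ± 0.78, and -2.49 without that replicate), and Saa3 rose by 1.89 ± 0.44.

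Few genes of the basic cell machinery passed with the deposited scaling. No proteasome subunit of 21 and no nuclear-encoded respiratory chain gene of 28 passed in limma (2 and 3 at an unadjusted p under 0.05), with medians of -0.22 and -0.24 that turned to 0.20 and 0.17 with totals taken without mitochondrial genes. Of 25 cytosolic ribosomal proteins 1 rose, Rpl3, by 0.72 ± 0.19 (median 0.23), but 11 rose with quantile normalization (median 0.58), 15 with totals taken without mitochondrial genes (0.65) and 9 in the FPKM columns (0.50). None of 13 mitochondrially encoded genes passed in limma (0 at an unadjusted p under 0.05), and their median was 0.46 with 6 libraries and -0.34 without CCl4 replicate 1. Of 30 liver transcription factors 6 fell and none rose (median -0.33, but 0.09 with those totals): the nuclear receptor Nr1i3, which governs drug metabolism, fell by 1.15 ± 0.27 and Tbx3, a factor of the central vein zone, by 1.76 ± 0.41. In lipid metabolism 4 of 30 genes of fatty acid oxidation fell, as did 3 of 27 of fatty acid and triglyceride synthesis, where 1 rose, and 2 of 24 of cholesterol synthesis. Of all tested genes 7.91% fell, and of those with a mean of 1000 to 10000 normalized counts 495 of 2985. These counts are thus not read as a change particular to lipid metabolism. Without CCl4 replicate 1, 2 genes of fatty acid oxidation and 1 of fatty acid and triglyceride synthesis fell, and in the FPKM columns 1 and 0. Acaa1a, a thiolase of peroxisomal fatty acid oxidation, had 6525, 6751 and 7570 after oil and 3535, 3504 and 2795 after CCl4 (-1.09 ± 0.18), and Dgat2, which completes triglycerides, fell by 1.02 ± 0.21.

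Genes of survival and growth signals moved in small sets. Of the 22 genes of FGF receptors and feedback, 8 rose and 2 fell, Fgfr3 and the decoy receptor Fgfrl1 (-0.98 ± 0.17). ERK feedback genes were among those that rose: the phosphatase Dusp4 had 12, 10.2 and 9.46 after oil and 62.9, 41.8 and 60.1 after CCl4 (2.26 ± 0.41, limma adjusted p = 0.00255; 0.24 with 0.83 in Alb-Cre) and Spry2 7.08, 2.35 and 1.28 after oil and 12.6, 25.4 and 16.2 after CCl4 (2.22 ± 0.52). For both the groups did not overlap, and the difference from Alb-Cre did not pass the interaction test (adjusted p = 0.404 and 0.474, in limma). Of growth factors and their receptors 7 of 32 rose and 4 fell (median 0.50): Inhbb, an activin subunit, had 3.28, 4.53 and 7.1 after oil and 60.9, 45.4 and 89 after CCl4 (3.46 ± 0.42), and the insulin receptor (Insr) fell by 0.83 ± 0.15. Lif, a cytokine of the IL-6 family, had 1.11, 0 and 0 after oil and 7.22, 38.1 and 35.4 after CCl4 (4.15 ± 0.71) and Osmr, the receptor of its relative oncostatin M, 13.1, 4.53 and 10.6 after oil and 250.7, 52 and 50.5 after CCl4 (3.19 ± 0.63). Without CCl4 replicate 1 these were 4.88 and 2.43. In the cell death list Bcl2, which protects from apoptosis, had 4.38, 1.13 and 0 after oil and 35.1, 22.9 and 20.1 after CCl4 (3.54 ± 0.61) and Bmf, which promotes it, 423.5, 276.5 and 248.4 after oil and 21.7, 46.1 and 49.7 after CCl4 (-3.03 ± 0.41). The apoptosome scaffold Apaf1 and the necroptosis effector Mlkl rose by 2.56 ± 0.39 and 1.51 ± 0.32.

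Markers of other liver cells rose as well, and differed in which CCl4 library was highest. Of 16 Kupffer cell and macrophage markers 14 rose and 1 fell (median 2.01, and 1.30 with 11 risen without CCl4 replicate 1). The member that fell was the iron exporter Slc40a1, which hepatocytes also express, by 0.97 ± 0.31. It did not pass without CCl4 replicate 1 (-0.91, limma adjusted p = 0.0912) or under any of the 3 other scalings. The defining marker Clec4f had 213.4, 223.3 and 335.9 after oil and 1186, 441.7 and 458.4 after CCl4 (1.30 ± 0.40, limma adjusted p = 0.039, and 0.83 with 0.118 without replicate 1). Summed, the markers held 0.0104% to 0.0157% of a library after oil and 0.0456%, 0.0169% and 0.0208% after CCl4. Of 13 neutrophil markers 6 were tested and none passed in limma (3 at an unadjusted p under 0.05), Ly6g, Camp, Ngp and Ltf were listed at 0 in CCl4 replicate 1, and the list's summed share was 0.00401% in CCl4 replicate 1 against at most 0.000176% in the other 5 Alb-R3 libraries: S100a8 had 0, 0 and 5.91 after oil and 376.6, 7.33 and 2.4 after CCl4. Endothelial markers (14 of 16 risen, median 1.29) and stellate cell and fibroblast markers (14 of 18, 2.12) had the other order. The endothelial sum held 0.00816% to 0.00896% after oil and 0.0186%, 0.0282% and 0.0307% after CCl4. The stellate sum held 0.00345% to 0.00421% and then 0.00673%, 0.0163% and 0.0204%. In Alb-Cre the endothelial sum held 0.0144% to 0.0199% after oil and 0.0188% to 0.0288% after CCl4. The stellate sum there held 0.00717% to 0.00945% and then 0.0101% to 0.0165%. The Kupffer cell and macrophage sum there held 0.0158% to 0.0188% after oil and 0.0116% to 0.0197% after CCl4. For each of these sums every Alb-R3 oil library thus lay below every Alb-Cre oil library. The Kupffer sums of Alb-R3 CCl4 replicates 2 and 3 lay near those Alb-Cre values, and only CCl4 replicate 1 lay far above them. No Kupffer cell or endothelial marker passed in Alb-Cre in limma, and 6 stellate markers rose. Col3a1, a fibrillar collagen, had 19.7, 22.7 and 42.6 after oil and 111.4, 326 and 394.3 after CCl4 (3.14 ± 0.42). T and NK cell markers had 2 of 8 risen, B and plasma cell markers 1 of 10 fallen and cholangiocyte markers 5 of 10 risen. The part of these cells in the rises of annexins, integrins, glycolytic isoforms and cytokine genes was not tested.

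**Figure D3:**
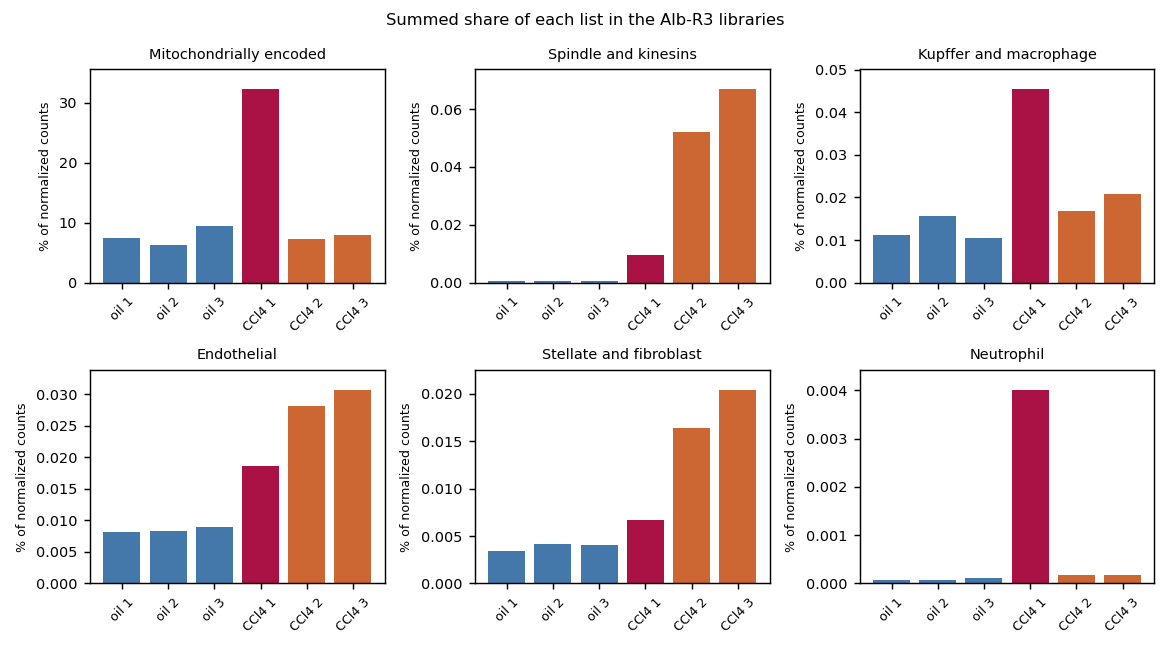
Summed share of each list in the normalized counts of each Alb-R3 library (percent, linear axes from 0). Bars are blue for oil, dark red for CCl4 replicate 1 and orange for CCl4 replicates 2 and 3: CCl4 replicate 1 is highest for mitochondrially encoded genes (32.3%), macrophage and neutrophil markers, and lowest of the CCl4 libraries for spindle genes (0.00966% against 0.0522% and 0.067%), endothelial and stellate markers.

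The place of CCl4 replicate 1 within its group differed by gene set. Over the 2261 genes that rose it was the lowest of the 3 CCl4 libraries in 855 and the highest in 1108, with a median log2 difference of 0.134 from the mean of the other 2. It was lowest for 24 of the 25 spindle genes that rose (median difference -1.85), for 22 of 23 kinetochore genes (-1.61) and for 15 of 15 chromatin assembly genes (-0.737). Among G1 and S phase regulators that rose it was lowest in 7 and highest in 6 of 18 (-0.085). It was highest for 14 of 16 annexin, S100 and actin genes (1.52), 9 of 10 chemokines (3.37) and 13 of 14 macrophage markers (1.56). Among genes that fell it was the lowest in 835 of 1460 (-0.32), in 13 of 14 cytochromes P450 (-1.21) and in 6 of 6 clock genes (-1.03). Spindle, P450 and clock genes thus stood lower in this library than in the other 2, and macrophage and chemokine genes higher. Genes whose log2 fold change moved most when it was left out included the macrophage lectin Lgals3, with 12, 12.5 and 22.5 after oil and 3822, 84.2 and 171.5 after CCl4 (4.58 ± 1.12, and 2.92 without it), and Gpnmb, a glycoprotein of lipid-laden macrophages, with 9.85, 2.27 and 1.19 after oil and 1702, 13.2 and 87.5 after CCl4 (4.92 and 3.06, limma adjusted p = 0.0246 and 0.0574).

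**Figure D4:**
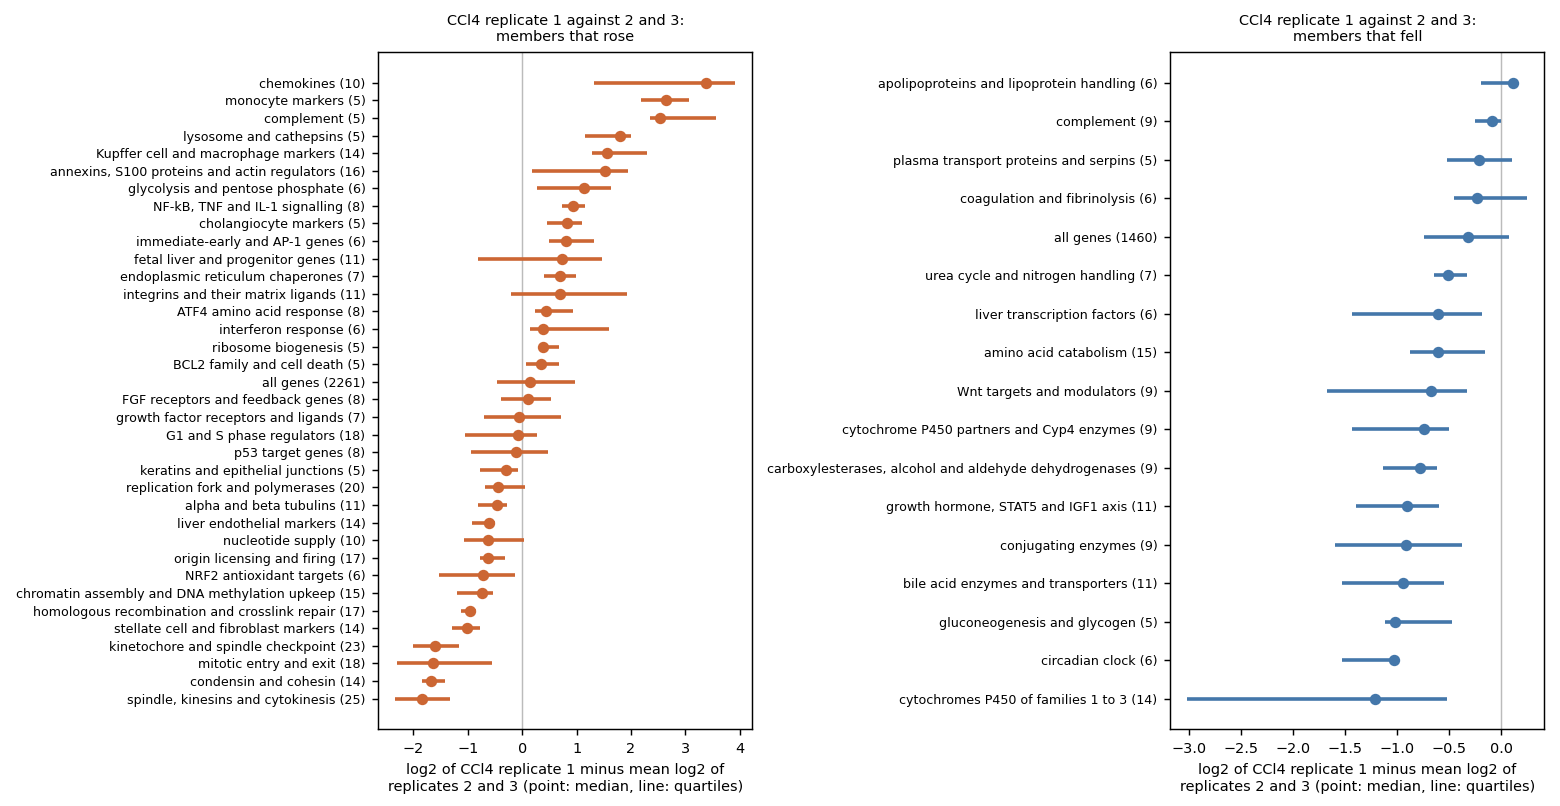
Log2 value of CCl4 replicate 1 minus the mean log2 value of CCl4 replicates 2 and 3 (x axis) for the members of each list that rose (left) or fell (right), with the number of members. Points are medians and lines run from the lower to the upper quartile: spindle genes lie at -1.85 and chemokines at 3.37 on the left, and cytochromes P450 at -1.21 on the right.

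The response was set beside that of Alb-Cre hepatocytes, in which CCl4 raised 712 of the same 18464 genes (3.86%) and lowered 210 (1.14%). Of those 922 genes, 828 were also called in Alb-R3 (89.8% of the calls in Alb-Cre and 22.3% of those in Alb-R3), each in the same direction. The number of calls does not show that the responses differ. The test of the difference between genotypes, limma's interaction, passed for 0 genes (smallest adjusted p = 0.258) and for 1429 at an unadjusted p under 0.05. Other settings gave 0 to 2 genes on leaving out a library, 11 without the variance trend and 135 with library weights. Spindle genes had like medians, 5.96 in Alb-R3 and 5.70 in Alb-Cre, as had condensin and cohesin (3.48 and 3.49). Medians lay further apart for annexins, S100 proteins and actin regulators (2.73 and 0.72), Kupffer cell markers (2.01 and -0.31), endothelial markers (1.29 and 0.37) and the growth hormone axis (-0.98 and -0.32), with no member of these lists past the interaction test. At an unadjusted limma interaction p under 0.05 were 15 of 16 Kupffer cell and 10 of 16 endothelial markers. So were 9 of 25 annexin, S100 and actin genes and 5 of 23 of the growth hormone axis. The oil groups differed too. The growth hormone list held 1.08% to 1.47% of a library in Alb-R3 oil and 0.65% to 0.96% in Alb-Cre oil. Kupffer cell and endothelial sums were lower in every Alb-R3 oil library than in every Alb-Cre one. Annexin sums overlapped after oil (0.117% to 0.135% and 0.109% to 0.120%).

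Lrit1, which encodes a leucine-rich repeat membrane protein, was 1 of the 2 genes past the interaction test when CCl4 replicate 1 of Alb-R3 was left out. Its Alb-R3 values were 552.6, 515.7 and 228.2 after oil and 97, 1.47 and 7.21 after CCl4, and its Alb-Cre values 372.7, 377.2 and 331.8 after oil and 225.6, 140.5 and 179.5 after CCl4. Both genotypes had lower values after CCl4, and the Alb-R3 CCl4 libraries lay below the Alb-Cre ones. The interaction was -5.48 (limma adjusted p = 0.0113) in that fit, and the log2 fold change in Alb-R3 -5.0 ± 0.93 (adjusted p = 0.00278) with 6 libraries. Its relative Lrit2 fell by 5.0 ± 0.91 in Alb-R3, from 280.1, 231.2 and 131.3 to 39.2, 0 and 5.61. Without CCl4 replicate 1 the log2 fold changes of Lrit1 and Lrit2 were -6.49 and -6.32. The other gene, Fam25c, had 1169, 914.6 and 1212 after oil and 3123, 92.3 and 99.4 after CCl4 in Alb-R3, so that CCl4 replicate 1 lay above the oil libraries and the other 2 below (interaction -4.06, limma adjusted p = 0.0113).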

How the data were processed

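RNA-seq libraries of purified hepatocytes were quantified with kallisto 0.44.0 and edgeR on GRCm38.p6, per the submitters' processing notes, which give no role or order. The authors deposited 1 table that lists, per the file headers, FPKM and normalized counts for each gene in each library. The normalized counts are a signal that the authors had already scaled, so they are not raw counts, reads per library are unknown, and a count test was not used. No interval for depth is given. Values were taken as log2(normalized count + 1) and fitted with limma 3.58.1 (R 4.3.3), with a variance trend, over the 4 groups of 12 libraries with 8 residual degrees of freedom, and p-values were adjusted by Benjamini-Hochberg over 18464 genes with a threshold of 0.05. The deposited FPKM served as an alternative (log2(FPKM + 0.1)), beside the scalings, filters, pseudocounts and left-out libraries of the closing section.

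Symbols were matched for 35574 of 35709 identifiers, and positions are from GENCODE M21. Promoters came from the RefSeq table (27025 genes). Named genes are Fgfr3, and then, among genes past the threshold with and without CCl4 replicate 1 and with groups that do not overlap, the 15 largest rises and falls with a mean of at least 50 and the 3 largest of each list in each direction with a mean of at least 5. Among genes past the threshold with all libraries, they are also the 10 largest gains and losses in share and the 10 whose fold moves most without that replicate. Members of a list that did not pass are also given by value. The genes and lists were chosen with earlier results of these data known, and the lists were drawn up for this tissue and treatment. The fit was tested on simulated data.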

Additional observations from a re-analysis of the deposited data

How the results depend on the processing

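The 3721 genes that passed in Alb-R3 became 2213 to 3361 when 1 of the 6 libraries was left out, with 1457 to 2029 higher and 756 to 1332 lower. The lowest of each came without oil replicate 1 and the highest without CCl4 replicate 2. A fit to the 6 Alb-R3 libraries alone gave 2337, 819 of them lower. Library totals without mitochondrial genes gave 4735 higher and 529 lower, the FPKM columns gave 586 lower and limma with library weights 2345 lower. The difference between genotypes, with 0 genes, gave 0 to 2 when a library was left out, 11 without the variance trend and 135 with library weights. Other pseudocounts and filters kept each of these counts within 1.5 times.

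With the replicate number as a block, 3219 genes passed, 2026 higher and 1193 lower, and 0 for the difference between genotypes. Numbers were not taken to pair the samples: same-numbered oil and CCl4 libraries had correlations of -0.065, 0.106 and -0.177 in their deviations from the group means, and not every library correlated best with its own number.

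Most of the 215 named genes were chosen as passing without CCl4 replicate 1 as well, so that setting says nothing of their stability. The 7 that did not pass without it, Actg1, Ccl4, Clec4e, Cyp2c29, Gpnmb, Slfn4 and Trem2, were chosen by share or by how far their fold moved. The most named genes were lost in the fit to the 6 libraries alone (39) and without oil replicate 2 (36). None changed direction in any setting run. For genes whose oil and CCl4 values do not overlap, that was fixed in advance in each setting except the 3 other scalings. Outside those scalings an unchanged direction thus says nothing of their stability. Fgfr3 also lost its call in the 6-library fit, with totals without mitochondrial genes, without the trend and in the FPKM columns. Reads per library are unknown, so no lower limit is given for a gene listed at 0.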

Other observations

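Nrg1, the neuregulin ligand of the receptors Erbb3 and Erbb4, was not in the lists above and was chosen after its values were seen. It had normalized counts of 1.09, 2.27 and 2.37 after oil and 94.9, 66.7 and 73.7 after CCl4 in Alb-R3, and 4.20, 4.86 and 3.58 after oil and 25.3, 26.3 and 26.6 after CCl4 in Alb-Cre. Each Alb-R3 CCl4 library lay above each Alb-Cre one, CCl4 replicate 1 was the highest, and each Alb-R3 oil library lay below each Alb-Cre oil library. The difference between the genotypes was 2.41 on the log2 scale (limma adjusted p = 0.0424 without the variance trend), and it did not pass with the trend. Afap1l2, an adaptor of the kinase Src, was chosen in the same way and had 3.28, 2.27 and 3.55 after oil and 24.8, 29.3 and 19.2 after CCl4 in Alb-R3. In Alb-Cre it had 10.5, 11.7 and 14.3 after oil and 14.6, 8.01 and 9.14 after CCl4, so that the genotypes were in opposite order after oil and after CCl4 (difference 2.87, adjusted p = 0.0371, limma without the trend).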
